A study of Mus musculus with 14 samples.

Results

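The lysosomal sulfatases Arsg, Arsa, Arsb, Arsk, Ids and Galns and the sulfatase-modifying factors Sumf1 and Sumf2 were examined in cultured primary microglia, which are macrophages that reside in brain tissue, of TIMP2 KO and WT genotype. The 8 genes were chosen by name, because Arsg differed between the genotypes in these same libraries and lies on chromosome 11, which also carries Timp2, and the others are its relatives. All 8 were among the 49315 genes of the count table and among the 15700 genes with enough counts for testing. The KO mice carried a global deletion of Timp2, present in every cell type of the pup, on a C57BL/6 background that the WT mice shared. Each of the 7 KO and 7 WT libraries came from forebrains of 5 pups, male and female, aged 6 to 7 days and pooled before CD11b microbead selection and culture. Levels are given as CPM, counts scaled to library size, as mean ± SD over the 7 libraries of a genotype, and differences as the log2 ratio (log2 fold change) of KO over WT fitted by edgeR, so that a positive value means a higher level in KO.

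Sulfatases remove sulfate groups from glycosaminoglycans, sulfolipids and other sulfated molecules, and those of the lysosome work one after another with glycosidases as these chains are taken apart. A sulfatase is active only after a cysteine in its active site has been converted to formylglycine in the endoplasmic reticulum, a step carried out by the product of Sumf1, while that of Sumf2 is a related protein without this activity of its own. Inherited loss of single sulfatases leads to storage diseases, among them metachromatic leukodystrophy for ARSA and several mucopolysaccharidoses, and loss of SUMF1 impairs all sulfatases at once.

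The cysteine and the codons next to it are the feature that ties these enzymes to Sumf1, so the coding sequence at this site is shown for the 6 sulfatase members and for Sgsh, which encodes a further lysosomal sulfatase. Each run of 39 bases is given 5′ to 3′ on the coding strand, from GENCODE M21 transcripts on GRCm38, and the capitals mark 5 codons that read cysteine, any residue, proline, any residue, arginine.
Arsg: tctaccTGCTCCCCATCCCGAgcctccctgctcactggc
Arsa: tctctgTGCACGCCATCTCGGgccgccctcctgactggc
Arsb: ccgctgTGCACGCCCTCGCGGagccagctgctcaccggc
Arsk: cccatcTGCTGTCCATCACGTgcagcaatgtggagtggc
Ids: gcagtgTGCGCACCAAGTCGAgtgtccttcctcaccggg
Galns: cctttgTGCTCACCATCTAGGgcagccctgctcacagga
Sgsh: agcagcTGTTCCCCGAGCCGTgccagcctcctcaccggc

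In Arsg the cysteine is codon 84, and the window lies within 1 coding exon, at chr11:109517267-109517305 on the forward strand. It is codon 68 in Arsa, 92 in Arsb, 83 in Arsk, 86 in Ids, 76 in Galns and 70 in Sgsh. In Arsa, Arsk and Galns the window spans an intron. Between Arsg and Arsa 29 of the 39 bases were the same, between Arsg and Galns 27, between Arsg and Sgsh 26, between Arsg and Arsk 24, and between Arsg and each of Arsb and Ids 23. The fuller signature that was searched around the 5 codons matched in all of these genes except Arsk. Arsk has the 5 codons and part of the fuller signature, without a complete match to it. Arsb held a second match to the 5 codons, and the one within the fuller signature is shown. The coding sequences of Sumf1 and Sumf2 held 0 matches to the 5 codons.

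Between 38875344 and 45623039 reads were counted per KO library and between 41538291 and 48070236 per WT library. Timp2, the deleted gene, was at 122 ± 3.14 CPM in KO and 464 ± 36.8 CPM in WT, and its log2 ratio was −1.92 (SE 0.0464, adjusted p = 1.53e-12 by the quasi-likelihood test of edgeR, Benjamini-Hochberg). Counts at Timp2 thus remained in KO, at 26.4% of the WT level, and their origin was not tested. The defining microglial markers were all detected, with a summed level of 7772 to 10080 CPM in KO and 7586 to 9551 CPM in WT over the 12 genes of the list, and 0 of the 12 passed the threshold. Markers of other brain cells were also present at low levels. Astrocyte markers summed to 28.8 to 131 CPM in KO and 33.1 to 251 CPM in WT (exact two-sided permutation p = 0.248), with all 8 genes fitted lower in KO and none past the threshold. All 7 tested neuronal, 7 oligodendrocyte lineage and 3 fibroblast markers were also fitted lower in KO, and 11 of the 12 microglial markers were fitted higher, with 0 past the threshold in any list. Neuronal markers summed to 18.6 to 40.9 and 22.9 to 48.0 CPM, oligodendrocyte lineage markers to 73.2 to 115 and 74.3 to 133 CPM, border macrophage markers to 377 to 634 and 332 to 712 CPM, with Lyve1 under 3 counts, endothelial and mural markers to 18.8 to 28.2 and 17.1 to 28.3 CPM, and fibroblast markers to 2.03 to 14.3 and 2.66 to 21.003 CPM. The exact permutation p of the 7 sums lay between 0.207 for microglia and 0.913 for border macrophages. The part of these cells in the sulfatase levels was not tested, and in such bulk libraries fewer cells of a type cannot be told apart from less RNA per cell.

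In WT microglia the members covered a wide range of levels when counts were set against the length of their exons. Galns, the galactosamine-6-sulfatase of keratan sulfate and chondroitin sulfate breakdown, was highest, at 42.5 ± 4.38 CPM per kilobase. Arsb, which removes sulfate from dermatan and chondroitin sulfate, followed at 40.7 ± 7.59 CPM per kilobase, and Sumf1 at 31.7 ± 1.26. Ids, the iduronate-2-sulfatase of heparan and dermatan sulfate breakdown, was at 19.0 ± 0.755 CPM per kilobase, Arsa, which acts on the myelin lipid sulfatide, at 9.37 ± 0.313, and Sumf2 at 7.10 ± 0.288. Arsg, which encodes a sulfatase of heparan sulfate breakdown, was at 4.26 ± 0.258 CPM per kilobase and Arsk at 4.15 ± 0.232. Galns was thus 9.99 times Arsg, and the WT ranges of neighbours overlapped between Galns and Arsb, between Arsb and Sumf1 and between Arsg and Arsk, while the other neighbours did not overlap. With the length of the longest transcript in place of all exons, Arsb was highest at 60.8 CPM per kilobase, Galns followed at 44.1, and Arsk, at 6.69, was above Arsg, at 5.08. The order of the 8 by all exons was the same in KO, where Arsg was at 5.53 ± 0.838 CPM per kilobase. Sgsh was at 5.58 ± 0.172 CPM per kilobase in WT, between Sumf2 and Arsg. Among 15666 tested genes with a known length, 54.7% were below Arsg and 93.4% below Galns.

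**Figure D1:**
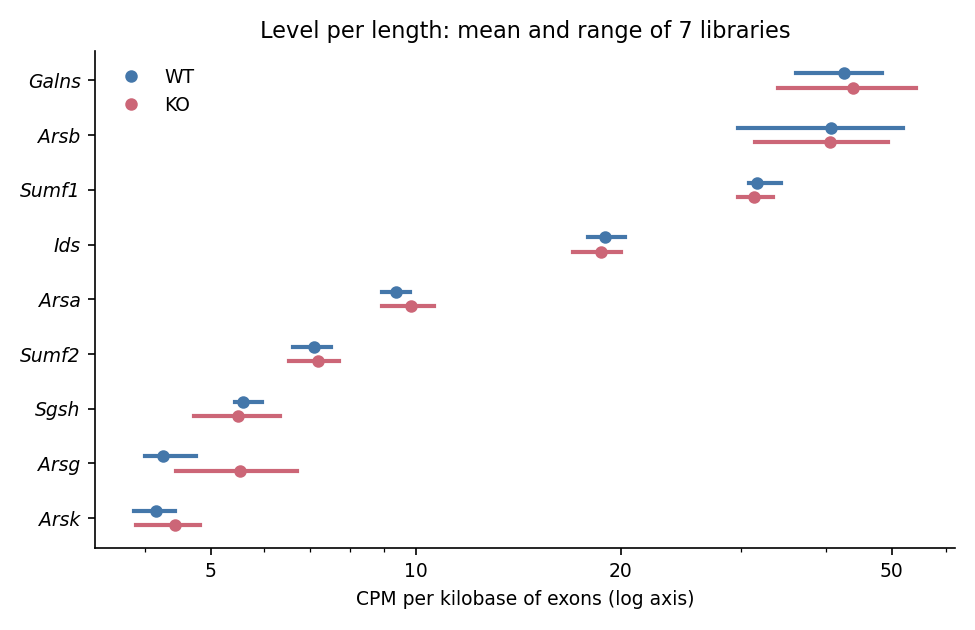
Level of each member and of Sgsh in CPM per kilobase of exon, on a log axis, with a point for the mean and a line for the range of the 7 WT and the 7 KO libraries. Galns, Arsb and Sumf1 are the highest members and Arsg and Arsk the lowest, and the KO mean of Arsg, 5.53, lies to the right of its whole WT range, which ends at 4.76.

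Arsg (ENSMUSG00000020604) occupies chromosome 11 from 109473374 to 109573330 on the forward strand of GRCm38. Its level in KO was 20.2, 21.6, 26.1, 25.5, 21.6, 18.64 and 17.4 CPM in replicates 1 to 7. In WT it was 15.8, 16.5, 17.2, 18.61, 15.6, 16.5 and 16.3 CPM. Of the 7 KO libraries 6 were above every WT library, where 0.93% of all tested genes had at least 5 such libraries, although KO replicate 6 was so by only a small margin over WT replicate 4, and KO replicate 7 lay within the WT range. The means were 21.6 ± 3.27 CPM in KO and 16.6 ± 1.01 CPM in WT, and the log2 ratio was 0.38 (SE 0.0827), or 1.30-fold. As the gene was chosen for this difference, these values and the calls below are a description. The same holds for the 0.93%, which was counted at 5 or more libraries rather than at 6. The 3 genes past the threshold in edgeR's quasi-likelihood test, 0.0191% of the genes tested, did not include Arsg, and 0 of the 15700 genes passed in the direction of a higher level in KO, where 1.75% had an unadjusted p under 0.05. The call depended on the tool, since in DESeq2 7 genes passed in that direction, Arsg among them. The authors, who used DESeq2 with batch modeled, name Arsg among their differentially expressed genes from these libraries. Its pass in DESeq2 is thus no separate support.

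The KO libraries also spread further apart than the WT libraries. The coefficient of variation of Arsg was 15.2% in KO and 6.06% in WT, where the counting error of its 689 to 1107 counts per library alone would give 3.48%. On the log2 scale its SD was 0.217 in KO and 0.0849 in WT, a ratio of 2.56, against 1.08 at the median of all tested genes, and 1.98% of the tested genes had a ratio at least as high. Among the relatives this ratio ran from 0.83 for Arsb to 1.74 for Arsa. Sgsh, which also lies on chromosome 11, had a coefficient of variation of 9.92% in KO and 3.07% in WT, a wider spread in KO as well. KO replicates 3 and 4 set the upper end of Arsg. Without KO replicate 3 the log2 ratio was 0.32, and without KO replicate 4 it was 0.33.

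**Figure D2:**
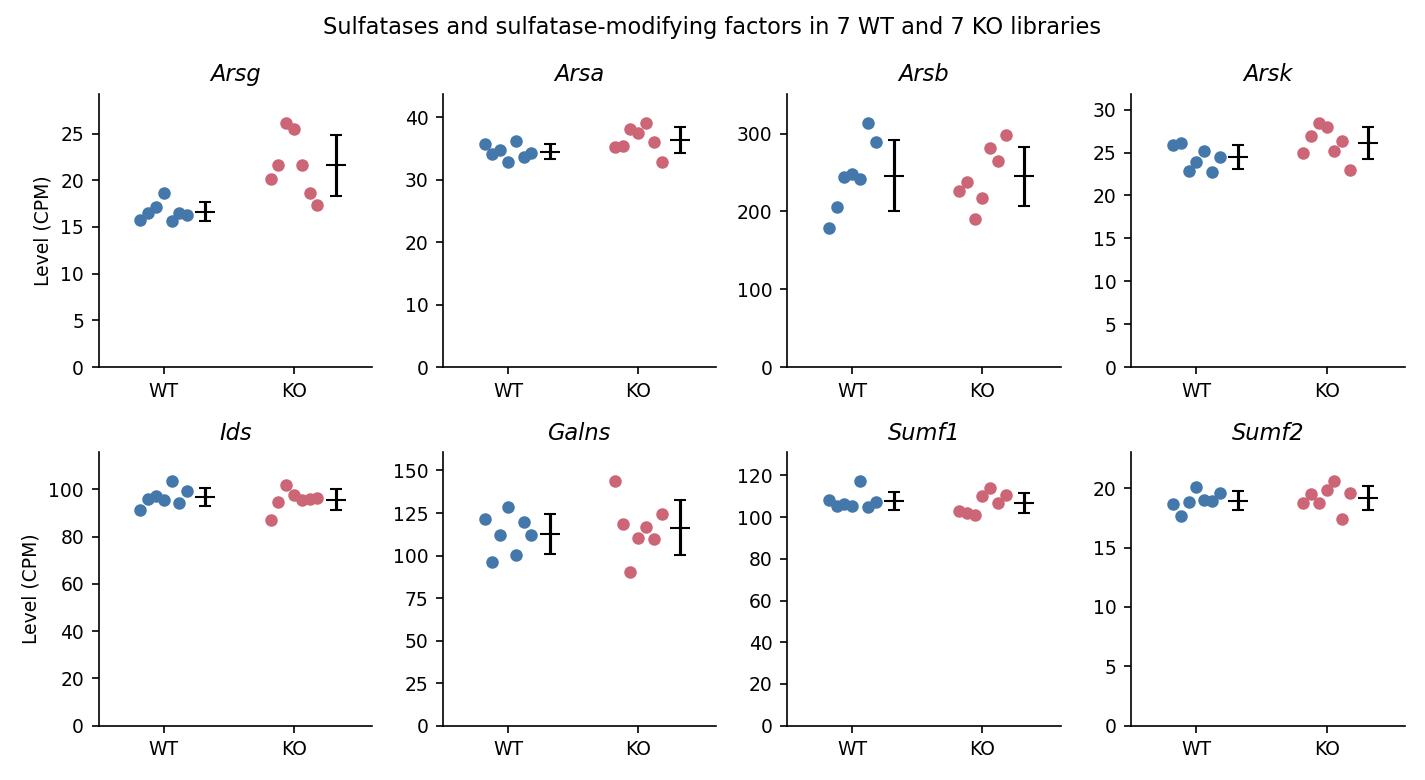
Level of the 8 members in CPM, with 1 panel per gene, each starting at 0, and 1 point per library in the order of the replicate numbers, with WT on the left, KO on the right and mean and SD beside the points. For Arsg 6 of 7 KO points lie above all WT points, and the same holds for 4 of 7 KO points of Arsk, 3 of Arsa, 1 each of Galns and Sumf2 and 0 of Arsb, Ids and Sumf1.

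Of the 7 relatives of Arsg, 0 passed the threshold in edgeR and 0 in DESeq2, against 0.0191% and 0.0955% of all tested genes. The smallest adjusted p among them was 0.943 (edgeR, Benjamini-Hochberg over all 15700 genes), and 0 of the 7 had an unadjusted p under 0.05, against 3.37% of all tested genes. That share rests on 529 genes, which became 999 without KO replicate 1 and 995 without WT replicate 5. The KO and WT ranges overlapped in all 8 members, where they did not in 0.0828% of tested genes. Of the 7 relatives, 4 were fitted higher and 3 lower in KO, beside 50.8% of all tested genes fitted higher, and their median log2 ratio was 0.02, where that of all tested genes was 0.0016. All adjusted p given below for single relatives come from this edgeR test.

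Arsa (ENSMUSG00000022620, chromosome 15) ran from 32.9 to 39.1 CPM in KO, with a median of 36.0, and from 32.8 to 36.1 CPM in WT, with a median of 34.3. Of the KO libraries 3 were above every WT library. Its log2 ratio was 0.07 (SE 0.0368, 95% interval −0.01 to 0.15, adjusted p = 0.943 from edgeR). Arsk (ENSMUSG00000021592, chromosome 13), a sulfatase of glucuronate-2-sulfate, ran from 22.9 to 28.5 CPM in KO, with a median of 26.4, and from 22.8 to 26.2 CPM in WT, with a median of 24.5. Of the KO libraries 4 were above every WT library. Its log2 ratio was 0.09 (SE 0.0493, 95% interval −0.01 to 0.20, adjusted p = 0.943 from edgeR). These were the relatives with the largest fitted differences. Without KO replicate 7, the lowest KO library of both, their unadjusted p from edgeR was 0.010 for Arsa and 0.017 for Arsk, with an adjusted p of 0.869 for each. That of Arsa was also 0.0485 without WT replicate 1, 0.0433 without WT replicate 5 and 0.0492 with a filter of 50 counts in 7 libraries. The adjusted p from edgeR in these settings lay between 0.684 and 0.935.

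Arsb (ENSMUSG00000042082, chromosome 13) had the widest spread of the members in both genotypes, from 190 to 298 CPM in KO and from 179 to 314 CPM in WT. Its log2 ratio was −0.00 with a 95% interval of −0.26 to 0.25 (adjusted p = 0.997 from edgeR), the widest interval of the members. Galns (ENSMUSG00000015027, chromosome 8) ran from 90.2 to 144 CPM in KO and from 96.0 to 128 CPM in WT, with a log2 ratio of 0.04 (95% interval −0.14 to 0.23, adjusted p = 0.966 from edgeR). Ids (ENSMUSG00000035847, on the X chromosome) was more even, at 86.9 to 102 CPM in KO and 91.4 to 103 CPM in WT, with a log2 ratio of −0.02 (95% interval −0.09 to 0.05, adjusted p = 0.966 from edgeR).

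The coefficient of variation in KO and WT was 4.57% and 3.98% for Sumf1 and 5.25% and 4.06% for Sumf2. Those of Ids, 4.71% and 3.98%, and of Arsa, 5.74% and 3.34%, were close to these. Sumf1 (ENSMUSG00000030101, chromosome 6) was at 107 ± 4.88 CPM in KO and 108 ± 4.29 CPM in WT, with a log2 ratio of −0.01 (95% interval −0.08 to 0.06, adjusted p = 0.972 from edgeR). Sumf2 (ENSMUSG00000025538, chromosome 5) was at 19.2 ± 1.01 CPM in KO and 19.0 ± 0.771 CPM in WT, with a log2 ratio of 0.02 (95% interval −0.06 to 0.10, adjusted p = 0.968 from edgeR).

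**Figure D3:**
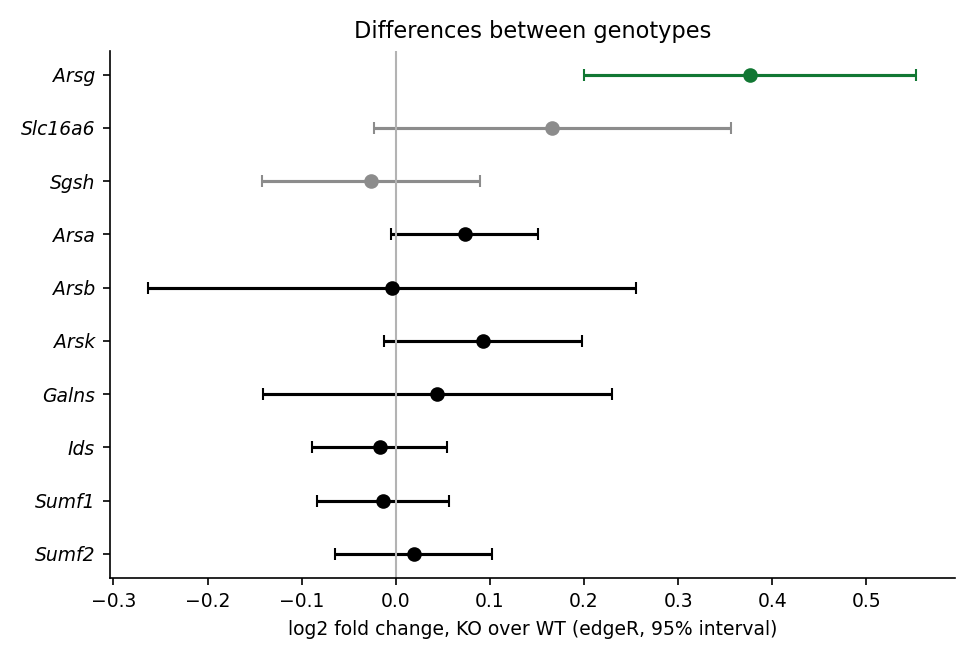
Log2 fold change, KO over WT, of Arsg (green), the other members (black) and Slc16a6 and Sgsh (grey), with the 95% interval of the edgeR fit as a line. The intervals of the 7 other members all include 0. Arsg was chosen for its difference, and its interval, 0.20 to 0.55, overlaps those of Arsb and Galns, which reach 0.25 and 0.23.

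Of the other sulfatases, 3 that were tested are given here. Sgsh, the heparan sulfamidase, lies on chromosome 11 from 119343425 to 119355536 on the reverse strand, 0.988 Mb from Timp2 and so nearer to it than Arsg. It was at 24.2 ± 2.40 CPM in KO and 24.6 ± 0.757 CPM in WT, with a log2 ratio of −0.03 (95% interval −0.14 to 0.09, adjusted p = 0.968 from edgeR). Sulf1 and Sulf2 encode enzymes that trim heparan sulfate outside the cell. Sulf1 varied from 0.583 to 14.2 CPM in KO and from 1.25 to 14.995 CPM in WT, with a log2 ratio of −0.39 (SE 0.688, adjusted p = 0.960 from edgeR), and Sulf2 was at 71.3 ± 11.1 and 74.2 ± 14.5 CPM, with a log2 ratio of −0.06 (adjusted p = 0.968 from edgeR). Arsi, with 1 to 20 counts per library, and Arsj, with 0 to 6, had too few counts to be tested.

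Arsg lies 8.73 Mb from Timp2, and the genes on the way there were examined in the same fit. As 3.37% of all tested genes had an unadjusted p under 0.05 in edgeR, a 0 in a small set of genes shows little. Of the 16 tested genes within 1 Mb of Arsg, 0 passed the threshold and 0 had an unadjusted p under 0.05, with 8 fitted higher and 8 lower in KO. They include Slc16a6, a monocarboxylate transporter gene whose 5′ end overlaps that of Arsg by 225 bases on the reverse strand. It was at 77.9 ± 10.1 CPM in KO and 69.4 ± 8.23 CPM in WT, with a log2 ratio of 0.17 (95% interval −0.02 to 0.36, adjusted p = 0.943 from edgeR), and 48 of the 3906 exon bases of Arsg, or 1.23%, are shared with it. On the other side of Arsg, Wipi1 had a log2 ratio of −0.03 and Prkar1a of −0.02.

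Between Arsg and Timp2 lay 116 tested genes, of which 22, or 19.0%, had an unadjusted p under 0.05, 12 of them higher in KO, and 0 passed the threshold. A division of this stretch at 5 Mb from Timp2, chosen after the values were seen, placed all 22 among the 105 genes nearer to Timp2 and 0 among the 11 genes between there and Arsg. Beside the 3.37% of all tested genes, a 0 among 11 genes does not show an edge at that distance. All 3 genes past the threshold, Timp2 and 2 others, lie on chromosome 11, and 0 on the other chromosomes. On chromosome 11 as a whole, without Timp2, 67 of 1282 genes had an unadjusted p under 0.05, or 5.23%, and on the other chromosomes 461 of 14417, or 3.20%.

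**Figure D4:**
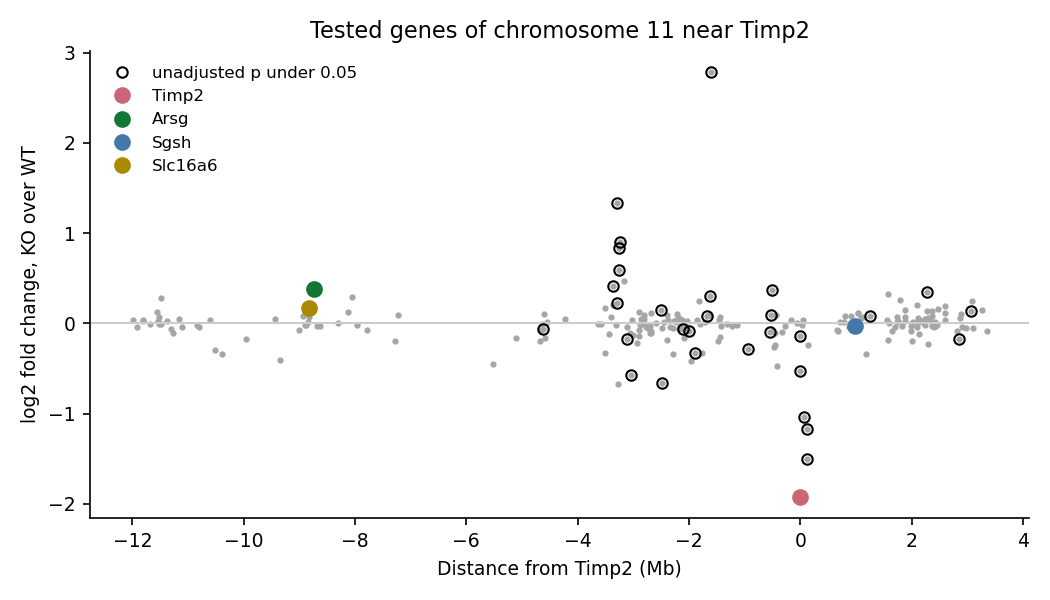
Log2 fold change, KO over WT, of tested genes of chromosome 11 (grey points) against their distance from Timp2 in Mb, with negative distances towards Arsg, open circles for an unadjusted p under 0.05, and Timp2, Arsg, Sgsh and Slc16a6 in colour. The 22 circled genes between Arsg and Timp2 all lie within 5 Mb of Timp2, a distance chosen after the values were seen. Of the 16 neighbours within 1 Mb of Arsg 0 are circled, where 3.37% of all tested genes had such a p. A set of 16 genes is too small for this 0 to show an edge.

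Reads from overlapping genes could not be told apart where the strand setting of the counting was not given in the sources used here. Besides Arsg, this applies to Arsb, of whose exon bases 39.9% are shared with Gm47210, which was not analysed here, and Gm26527, which had 0 counts, both on the opposite strand. In Sgsh 21.6% are shared with Card14, at a mean of 8.43 counts per library. It applies also to Arsa, of whose exon bases 18.75% are shared with the antisense transcript C230037L18Rik, and to Sumf2, 23.6% of whose exon bases lie over Phkg1 on the opposite strand. C230037L18Rik was at 1.25 ± 0.301 CPM in KO and 1.21 ± 0.155 CPM in WT. Phkg1 was at 1.30 ± 0.0860 CPM in KO and 1.19 ± 0.281 CPM in WT, with a log2 ratio of 0.14 (adjusted p = 0.943 from edgeR). C230037L18Rik and Phkg1 were thus low beside the member they overlap. This did not hold for Slc16a6, at a mean of 3183 counts per library beside 825 for Arsg. Nor did it hold for Ncoa3, on the opposite strand over 2.62% of the exon bases of Sulf2, at 14031 counts beside 3151.

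The wider pathway was read from lists of genes for the breakdown of glycosaminoglycans and sulfatide, for the maturation and delivery of lysosomal enzymes, and for the addition of sulfate. Of 16 tested breakdown genes 0 passed the threshold, 1 had an unadjusted p under 0.05, and 11 were fitted higher and 5 lower in KO, at a median log2 ratio of 0.0091. The smallest p belonged to Hpse, which encodes heparanase, the enzyme that cuts heparan sulfate chains, at 38.2 ± 8.99 CPM in KO and 30.6 ± 5.76 CPM in WT (log2 ratio 0.32, SE 0.144, adjusted p = 0.943 from edgeR). Next were Hyal2, a hyaluronidase gene, with −0.12 and Gm2a, a glycolipid activator gene, with 0.06. Of 14 tested maturation and delivery genes 0 passed and 1 had an unadjusted p under 0.05, with 9 fitted higher and 5 lower and a median of 0.0092, and the smallest p belonged to Mcfd2, a cargo receptor subunit gene, with 0.07, Nagpa, which uncovers the mannose 6-phosphate tag, with 0.05, and Tfe3, a transcription factor of lysosomal genes, with 0.06. Of 25 tested genes for sulfate addition 0 passed and 0 had an unadjusted p under 0.05, with 12 fitted higher and 13 lower and a median of −0.0050. Here the smallest p belonged to Tpst2, a tyrosine sulfotransferase gene, with 0.07, Hs3st1, a heparan sulfotransferase gene, with −0.38 (SE 0.231), and Slc26a2, a sulfate transporter gene, with 0.04. These medians stand beside the 0.0016 of all tested genes, and in DESeq2 0 genes of the 3 lists passed as well.

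The members were then compared across libraries, after the mean of each genotype had been subtracted so that the difference between KO and WT did not enter. Over the 14 libraries 0 of the 7 relations of Arsg passed after Benjamini-Hochberg adjustment of p from 100000 permutations within genotype. The highest was with Arsk (Pearson's r = 0.527, permutation p = 0.0923, adjusted p = 0.382; Spearman's rho = 0.393, permutation p = 0.209), and it fell to r = 0.078 without KO replicates 3 and 7. With Arsa r was 0.449 (permutation p = 0.206, adjusted p = 0.409; rho = 0.319, permutation p = 0.327), and 0.219 without KO replicates 5 and 7. With Arsb it was −0.431 (permutation p = 0.109, adjusted p = 0.382; rho = −0.327, permutation p = 0.257), and −0.653 without WT replicates 1 and 6. Taken by genotype, r in KO and WT was 0.849 and −0.476 for Arsk, 0.740 and −0.820 for Arsa, and −0.825 and 0.213 for Arsb. It also differed in sign for Ids, 0.457 and −0.183, and for Galns, −0.614 and 0.509. For Sumf1, −0.260 and −0.563, and for Sumf2, 0.243 and 0.487, the sign was the same. Each of these r is over only 7 libraries, and the difference between the genotypes was not tested. With Ids, Galns, Sumf1 and Sumf2 r lay between −0.349 and 0.288.

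**Figure D5:**
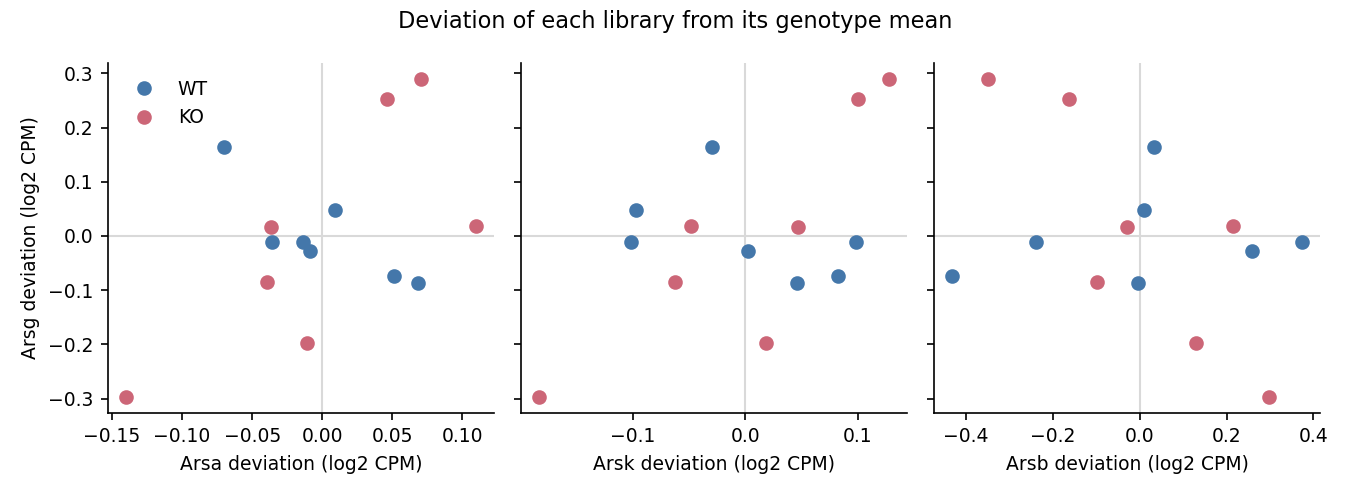
Deviation of Arsg from the mean of its genotype, in log2 CPM, against that of Arsa, Arsk and Arsb in 3 panels, with 1 point for each of the 7 WT and 7 KO libraries. The KO points rise with Arsa (r = 0.740) and Arsk (r = 0.849) and fall with Arsb (r = −0.825), while the WT points do not follow them (r = −0.820, −0.476 and 0.213).

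KO replicate 3 stood out in this respect. In a count made after the values were seen, over the 8 members with Sgsh, it held the highest or the lowest KO level of 7 of the 9 genes, with Arsg, Arsk and Ids highest and Arsb, Galns, Sumf1 and Sgsh lowest. KO replicate 7 did so for 5 genes and the other KO libraries for 0 to 3. The WT libraries did so for 0 to 5 genes. In KO replicate 3 the microglial markers summed to 9516 CPM and the astrocyte markers to 45.5 CPM, both within the range of the other KO libraries. Its endothelial and mural markers, at 28.2 CPM, were the highest of the KO libraries, and its share of mitochondrial counts, 1.02%, was the lowest of all 14. Their part in the levels was not tested.

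Sgsh, the other sulfatase gene near Timp2, ran against Arsg among the KO libraries. In replicates 1 to 7 Sgsh was at 25.0, 24.0, 20.9, 21.6, 25.6, 24.4 and 27.9 CPM, so that the KO libraries with the highest Arsg, replicates 3 and 4, had the lowest Sgsh, and KO replicate 7, with the lowest Arsg, had the highest. The relation was looked for after these values were seen. Over the 14 deviations r was −0.733 (permutation p = 0.0282, adjusted p = 0.226 over the 8 relations with Sgsh added; rho = −0.442, permutation p = 0.166). It was −0.360 without KO replicates 3 and 7, so its size over all libraries depended on those 2, and r within KO without them was not computed. Within KO r was −0.905 and within WT 0.712. WT replicate 4 had the highest WT level of both genes, 18.61 CPM for Arsg and 26.2 CPM for Sgsh, and r without it was not computed.

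The 5 genes whose deviations were most like those of Arsg over the 14 libraries were Gpbp1 (r = 0.910, rho = 0.780), Rsad1 (r = 0.892, rho = 0.701), Taf15 (r = 0.877, rho = 0.767), Rnf14 (r = 0.874, rho = 0.785) and Gm13270 (r = 0.8497, rho = 0.789). They were picked as the highest of all tested genes, so that the values are a description. Rsad1 and Taf15 lie on chromosome 11, and the others on chromosomes 13, 18 and 2. Rsad1 starts at 94539798 and Taf15 at 83473086, so neither is a neighbour of Arsg, which starts at 109473374. For all 5 genes r was higher in KO than in WT, from 0.966 and 0.243 for Taf15 to 0.937 and 0.716 for Gpbp1. The log2 ratio of these genes, KO over WT, lay between −0.28 for Gm13270, at a mean of 0.287 CPM, and 0.04 for Taf15. Slc16a6, which shares its start region with Arsg, had r = 0.097 (permutation p = 0.777) and rho = −0.165 (permutation p = 0.580), and it ranked 6251st among the tested genes.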

How the data were processed

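The deposited values were raw counts per Ensembl gene for 14 libraries, which the authors did not normalize. The processing notes of the submitters list Trimmomatic 0.36, STAR 2.5.2b, featureCounts, Subread 1.5.2 and DESeq2, and the reads were poly(A) selected, paired-end and mapped to GRCm38. The strand setting and annotation release were not given in the sources used here, and the batch that the authors modeled is not named per library, so that genotype alone was fitted. Groups and replicate numbers came from the sample labels. Positions and names came from GENCODE M21, which held 49056 of the 49315 genes.

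In edgeR 4.0.16 (R 4.3.3), filterByExpr kept genes at its minimum count of 10 and minimum total of 15, TMM factors scaled the libraries, and KO was compared with WT by the two-sided quasi-likelihood test, with Benjamini-Hochberg adjustment over the 15700 genes kept and a threshold of 0.05. Log2 CPM used a prior count of 1. Marker sums were compared by exact permutation over 3432 splits. The alternatives were DESeq2 1.42.0, other scaling and filters, the replicate number as a block, another gene length and leaving out each library. The scripts were tested on simulated data. Of the 91 pairs of libraries, the closest differed with a chi-square of 5.86 per degree of freedom, so none was a repeat of another. Sources do not say whether same-numbered pools were linked. Members and lists were chosen with earlier results of these data known. The genes named were the members, other sulfatases, of which 1 is not reported here, overlapping genes, up to 3 genes with the smallest p per list, and the 5 most like Arsg. Genes within 1 Mb of Arsg were to be named if their unadjusted p was under 0.05, and none was. Wipi1 and Prkar1a, the relation with Sgsh and the division at 5 Mb were chosen after the values were seen.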

Additional observations from a re-analysis of the deposited data

Results flagged for a closer look

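Of 22 groups of 7 libraries tested (11 sulfatase and modifying factor genes in each genotype), 3 had a library whose gap to its nearest neighbour exceeded Dixon's 95% critical value as a share of the range of the group, where chance gives about 1 in 20. Sumf1 was at 117 CPM in WT replicate 5, with the nearest WT library at 108 CPM. Sgsh was at 26.2 CPM in WT replicate 4, with the nearest at 24.8 CPM. Sulf2 was at 95.1 CPM in KO replicate 4, with the nearest at 74.5 CPM.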

How the results depend on the processing

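Most results kept their direction and their side of the threshold. Arsg kept its direction, with a log2 fold change between 0.32 and 0.42 over 22 settings. The exceptions were these. With DESeq2 15 genes passed in place of 3, 7 of them higher in KO, and with DESeq2 and the replicate block 26, 15 of them higher. In each of these fits 1 of the 8 members passed in place of 0, and it was Arsg, with a log2 fold change of 0.37 and 0.36. With the length of the longest transcript Arsg ranked 8 of 8 in place of 7, and Arsb came before Galns. The relation of Arsg with Galns was 0.032 without the 2 farthest libraries. Leaving out 1 library gave 3 to 4 genes past the threshold, with 4 without KO replicate 4, and a log2 fold change of −0.066 to 0.063 for Arsb, −0.035 to 0.0020 for Ids, −0.016 to 0.095 for Galns, −0.029 to 0.0082 for Sumf1 and −0.062 to 0.0049 for Sgsh. The sign turned for Arsb without KO replicates 1, 3 or 4 or WT replicates 6 or 7, for Ids and Galns without KO replicate 1, for Sumf1 without WT replicate 5 and for Sgsh without KO replicate 3. The cause of these changes was not tested.

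With the replicate number as a block in edgeR, 3 genes passed, 0 of them members, and the log2 fold change was 0.37 for Arsg and 0.0024 for Arsb. The block changed no other call in edgeR, while genes with an unadjusted p under 0.05 went from 529 to 921. Among the correlations of Arsg with the members 0 passed with the block as well. Their order changed, with Arsa highest at r = 0.658 (adjusted permutation p = 0.118) and Arsk at 0.503. Sumf1 was at −0.575 (adjusted permutation p = 0.153), and Arsb went from −0.431 to −0.155. Same-numbered KO and WT libraries deviated with a mean correlation of 0.103 (−0.196 to 0.743), against −0.0156 for other pairs, 3 of the 7 pairs were over 0.1, and 1 KO library correlated best with its own number, so the numbers were not taken to pair the libraries. Depth limits Arsi and Arsj, which were not tested, and the counting error of Arsg is 3.48% of its level.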
